A study of Oryctolagus cuniculus with 14 samples.

Results

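The genes described here are those whose level was high in clinically impaired rabbit corneas after sulfur mustard and low in both other groups of corneas. For each of 23669 rabbit gene IDs, the count was multiplied by 1000000 and divided by the total count of its library (CPM), and the median CPM of each group was taken. A gene was a member if its impaired median was at least 2 CPM and at least 4 times both the naive median and the non-impaired median. This gave 98 members, 0.414% of all gene IDs and 98 of the 10048 genes with enough counts to be tested. The members were thus chosen by their values in these libraries, so their difference between impaired corneas and the other groups is a description and not a result of a test.

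The series measured RNA by sequencing in corneas of New Zealand White rabbits. The 5 impaired and the 5 non-impaired corneas came from eyes exposed to sulfur mustard vapor and were taken at 4 weeks. They differ in the label by the clinical status of the eye, and on which signs that status rests is not stated in the labels. The 4 naive corneas carry the same time in their label. Whether each cornea of a group is from another rabbit is not stated, so p-values speak of the variation among these libraries alone, and that variation may be technical.

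Sulfur mustard is an alkylating vesicant that burns the surface of the eye. In some exposed eyes the cornea recovers, and in others it later develops opacity, inflammation, erosions of the epithelium and growth of blood vessels into a tissue that normally has none. An exposed cornea therefore can contain cells of conjunctiva, vessels and blood that a healthy cornea lacks, beside its own epithelium, stromal keratocytes and endothelium. In RNA from corneas, more cells of a type and more RNA per cell cannot be told apart. The gene IDs could not be paired with gene names (0 of 23669 were found in a table of 38822 RefSeq genes), so the members cannot be ordered by function, the tissue could not be checked by marker genes, and no sequence is shown. Members are called by their rank on the impaired median, and 2 of them by ID.

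Library totals lay between 12002876 counts (impaired 1) and 17488019 counts (naive 1). Of the 14 libraries, naive 4 stood apart from the rest of its group in the members' values, as described below. Within the impaired group, impaired 1 and impaired 3 were low in many members, and impaired 4 had the highest member sum. The main counts and sums are given with and without naive 4 and impaired 1, and the impaired mean sum also without impaired 4. Every member had at least 1 count in each of the 5 impaired libraries, and 69 members had a count in all 14 libraries.

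The members lay across a wide range of levels. Impaired medians ran from 2.09 to 862 CPM, with a median of 16.3 CPM over the 98 members. The level was 2 to 10 CPM in 40 members, 10 to 100 CPM in 45 and above 100 CPM in 13. In the other corneas most were scarce: the naive median was below 1 CPM in 56 members and the non-impaired median in 50, with 46 below 1 CPM in both. A smaller number were less scarce: 9 members had a naive median of at least 10 CPM and 15 a non-impaired median of at least 10 CPM. For 6 members no naive library had a count, while each member had a count in at least 1 non-impaired library.

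The ratio of the impaired median to the higher of the other medians had a median of 8.72 over the members. It was at least 8 in 53 members, at least 16 in 30, at least 64 in 7 and below 5 in 15. The non-impaired median was the higher of the 2 in 70 members and the naive median in 28. Near the limits of the rule, the lowest impaired median inside was 2.09 CPM and the highest outside, among genes that met both ratios, was 1.92 CPM. The lowest ratio to the non-impaired median inside was 4.03 and the nearest outside was 3.97. For the naive median these ratios were 4.06 and 3.77. There were 279 genes that met every condition but the ratio to non-impaired corneas, and 30 that met every condition but the ratio to naive corneas.

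Summed over the 98 members, the CPM was 3699, 7540, 3156, 11840 and 6282 in impaired 1 to 5. It was 661, 727, 556, 723 and 796 in non-impaired 1 to 5, and 409, 195, 239 and 1340 in naive 1 to 4. Each impaired library held more member RNA than any other library, and naive 4 held more than all 5 non-impaired libraries and the other 3 naive ones. The mean was 6503 ± 3489 CPM in impaired (SD, n = 5), 693 ± 90.2 CPM in non-impaired (SD, n = 5) and 546 ± 537 CPM in naive corneas (SD, n = 4). Without naive 4 the naive mean was 281 ± 113 CPM (SD, n = 3). The impaired mean was 7204 ± 3599 CPM without impaired 1 (SD, n = 4) and 5169 ± 2088 CPM without impaired 4 (SD, n = 4). As a share of all counts, the members held 0.316% to 1.18% of an impaired library, 0.0556% to 0.0796% of a non-impaired library and 0.0195% to 0.134% of a naive library.

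**Figure D1:**
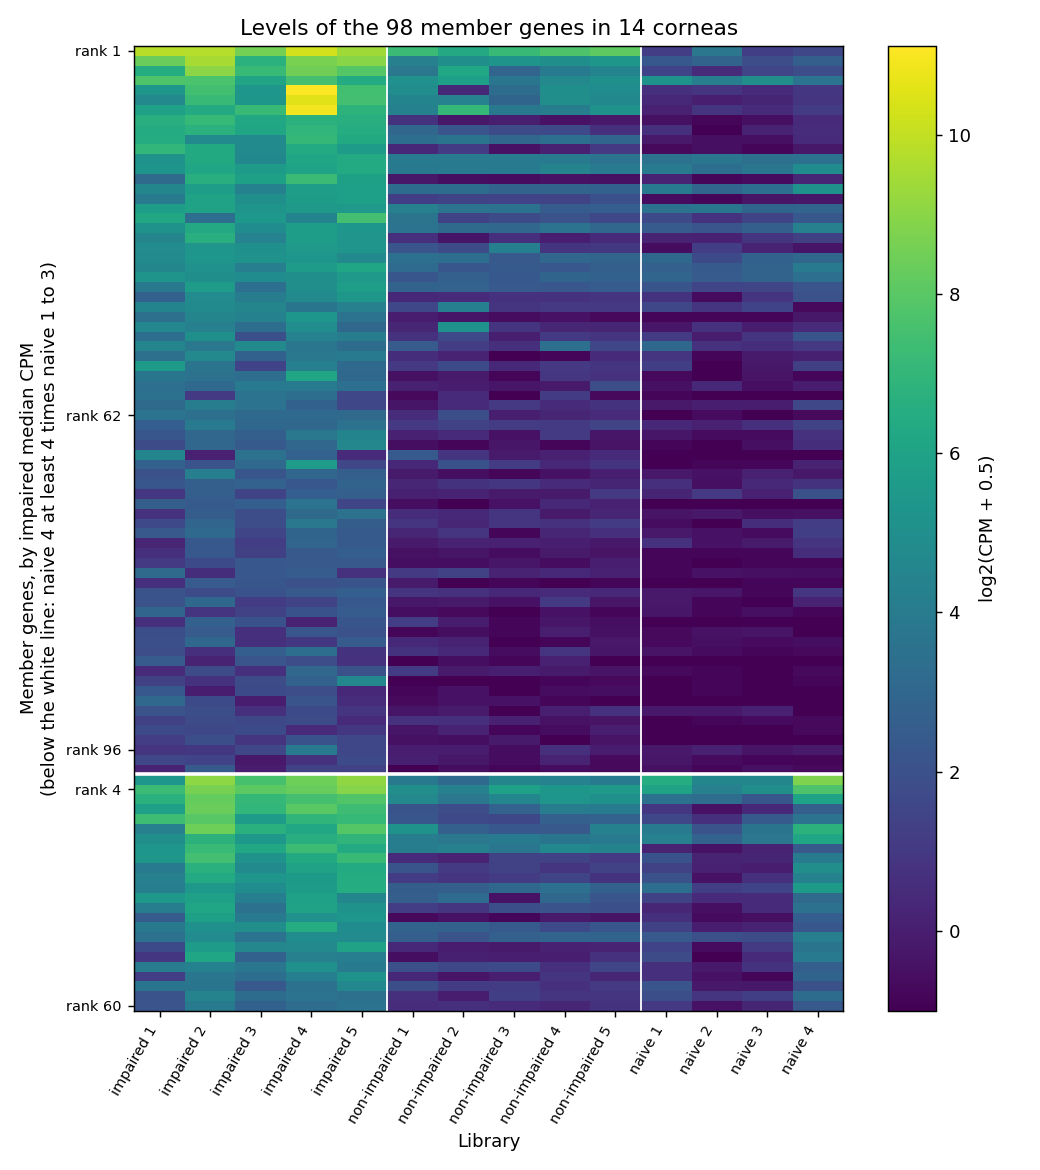
Level of each of the 98 members (rows, by impaired median CPM from high to low) in each of the 14 libraries (columns), as log2(CPM + 0.5). Below the horizontal white line are the 24 members in which naive 4 is at least 4 times the median of naive 1 to 3; impaired libraries are bright in both blocks, and naive 4 is bright in the lower block.

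The most abundant member was ENSOCUG00000029244. It had 910, 862, 386, 1253 and 678 CPM in impaired 1 to 5 and 153, 77.6, 149, 212 and 275 CPM in non-impaired 1 to 5, against 1.77, 13.5, 1.91 and 2.46 CPM in naive 1 to 4. The 3 groups did not overlap, and non-impaired corneas lay between the other groups. Non-impaired corneas, at 173 ± 74.2 CPM (SD, n = 5), were higher than naive corneas, at 4.92 ± 5.74 CPM (SD, n = 4), a difference of 5.21 on the log2 scale with an SE of 0.68 (edgeR quasi-likelihood test, adjusted p = 0.000182). All 5 non-impaired libraries were above all 4 naive libraries. Its impaired median was 5.63 times the non-impaired one.

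ENSOCUG00000013488, of rank 2, had 329, 736, 105, 413 and 504 CPM in impaired 1 to 5. Its values were 18.6, 32.7, 37.5, 31.8 and 41.9 CPM in non-impaired 1 to 5 and 4.52, 6.79, 3.18 and 5.93 CPM in naive 1 to 4. It showed the same order of groups without overlap, with impaired 3 the nearest of the impaired libraries to the non-impaired ones. The mean was 5.11 ± 1.59 CPM in naive libraries (SD, n = 4) and 32.5 ± 8.75 CPM in non-impaired ones (SD, n = 5), which were higher by 2.73 on the log2 scale with an SE of 0.49 (edgeR adjusted p = 0.00156).

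The members below were singled out by rank after their values were seen. The member of rank 14 came nearest to an on and off pattern. Its impaired libraries had 95.8, 140, 75.8, 105 and 98.7 CPM, its non-impaired libraries 1.19, 0.363, 0.499, 0.249 and 0.401 CPM, and its naive libraries 0.229, 0.0653, 0.212 and 0.839 CPM. The impaired median was 246 times the non-impaired median, the largest such ratio to the higher of the other medians among the 98, and the impaired libraries stayed within a narrow band. Between non-impaired and naive corneas the test made no call (log2 fold change 0.73, SE 0.61, edgeR adjusted p = 0.404).

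The member of rank 39 was even across libraries at a different baseline. It had 38.0, 32.2, 29.4, 32.0 and 45.2 CPM in impaired 1 to 5, 4.22, 5.98, 4.49, 6.90 and 6.36 CPM in non-impaired 1 to 5, and 7.26, 5.03, 6.72 and 10.1 CPM in naive 1 to 4. Here non-impaired and naive libraries overlapped (log2 fold change -0.32, SE 0.21, edgeR adjusted p = 0.292), so the gene was expressed in every cornea and stood several-fold higher in impaired ones.

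Several members had 1 library far above the others. The member of rank 8 had 41.7, 173, 40.1, 2215 and 174 CPM in impaired 1 to 5, so that its impaired mean of 529 ± 945 CPM (SD, n = 5) was 107 ± 76.3 CPM without impaired 4 (SD, n = 4). The member of rank 12 had 60.3, 84.4, 150, 1932 and 112 CPM in impaired 1 to 5, and 468 ± 819 CPM (SD, n = 5) became 102 ± 38.5 CPM without impaired 4 (SD, n = 4). With the member of rank 10, at 1542 CPM in impaired 4 and 25.2 to 183 CPM in the other impaired libraries, these genes made up 48.0% of the member sum of impaired 4. Without these 3 genes the member sums of impaired 1 to 5 were 3571, 7137, 2924, 6152 and 5813 CPM, and impaired 2 rather than impaired 4 was the highest. In the non-impaired corneas these genes went different ways in 1 library: non-impaired 2 had 136 CPM of the member of rank 12 and 0.786 CPM of the member of rank 8, the highest and the lowest value of its group.

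The rule took medians and set no limit on the spread inside the impaired group. A choice by large ratios in these same libraries can still favour genes that vary between libraries. The highest impaired library stood a median of 5.04 times above the lowest over the 98 members, from 1.43 to 61.1 times, with a ratio under 2 in 10 members and of at least 10 in 18. Impaired 2, 4 or 5 was the highest in 83 members and impaired 1 or 3 the lowest in 75. On the scale of log2(CPM + 0.5), the median deviation from a member's own impaired mean was -0.55 in impaired 1, -0.50 in impaired 3, 0.23 in impaired 5, 0.38 in impaired 2 and 0.42 in impaired 4. Thus on the median the members were lower in impaired 1 and 3 than in impaired 2, 4 and 5. In 13 members a single library held over 50% of the summed impaired CPM: impaired 4 in 6, impaired 1 and impaired 5 in 3 each, and impaired 2 in 1. No share over all tested genes stands beside the counts in this paragraph. Naming several libraries together also raises the counts of highest and lowest.

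The SD of log2(CPM + 0.5) within the impaired group had a median of 0.85 over the members and 0.27 over the other 9950 tested genes. At an impaired median of 10 to 100 CPM it was 0.84 for 45 members and 0.23 for 4685 other genes. In non-impaired corneas the medians for these same genes were 0.45 and 0.15, and in naive corneas 0.93 and 0.17. The members thus had a wider spread between libraries than other genes of that impaired level. At 2 to 10 CPM the naive medians went the other way, with 0.20 for 40 members and 0.28 for 2012 other genes. The members' counts in non-impaired and naive corneas are lower by the rule. Low counts raise the relative counting error, while the added 0.5 CPM narrows the spread of scarce genes. The part of either in these values was not tested. The choice of members can itself favour a wide spread, so the comparison is a description.

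How far the libraries separated was read beside all tested genes. Every impaired library lay above all 9 other libraries in 60 of the 98 members, and in 3.71% of the 10048 tested genes. Every impaired library lay above every naive library in 78 members (12.5% of tested genes), and above every non-impaired library in 78 (11.8% of tested genes). The quasi-likelihood test of edgeR called 93 members higher in impaired than in naive corneas at a Benjamini-Hochberg adjusted p below 0.05 (19.8% of tested genes), and 96 higher than in non-impaired corneas (18.4% of tested genes). The rule used both contrasts, so these counts follow in part from it. Of the 38 members with overlap, 20 had naive 4 at or above the lowest impaired library. The number separated from all other libraries was 75 without naive 4 and 70 without impaired 1. It was 62, 65, 61 and 64 without impaired 2 to 5. Leaving out a library can only raise this number, and its share of tested genes was not computed for these sets. Among non-impaired libraries, non-impaired 1 reached the lowest impaired library in 9 members, non-impaired 2 in 8 and each other library in 1 to 5. The member of rank 47 was 1 of these: it had 36.2 CPM in non-impaired 2, above all 5 impaired libraries at 8.12 to 29.9 CPM, and 0.687 to 1.25 CPM in the other non-impaired libraries.

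To read the members in a library that had no part in choosing them, each library was left out in turn, the rule was applied to the remaining 13, and the genes so chosen were read in the library left out. With impaired libraries left out, the rule chose 92 to 112 genes. In the left-out library, 80 of 92 (87.0%) had at least 2 CPM and at least 4 times both other medians in impaired 4, 72 of 97 (74.2%) in impaired 2 and 72 of 106 (67.9%) in impaired 5. The values were lower in impaired 1, with 56 of 112 (50.0%), and impaired 3, with 54 of 112 (48.2%). Over all tested genes, 0.926% to 2.10% reached that level. The other medians in these ratios were those that the rule had held low in choosing the genes. All tested genes had no such choice, so they are not an equal background. Counting every gene above both other medians, by whatever ratio, gave 105 of 112 in impaired 1 and 110 of 112 in impaired 3, and of all tested genes 31.4% to 43.4% lay above both in the left-out impaired library.

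A left-out non-impaired library had at most 0.25 times the impaired median in 83.8% to 93.8% of the genes chosen without it. The same held in naive 1, 2 and 3 for 92.0%, 96.8% and 100% of the genes, and in naive 4 for 69 of 100. Of all tested genes, 2.03% to 6.35% were that low. The members' low level thus carried over to each of the other libraries in most genes, and least often to naive 4. Here the impaired median was the one that the rule had required to be high. The ratios are therefore selected in part, unlike those of all tested genes. Of the 98 members, 75 were kept in all 14 choices.

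**Figure D2:**
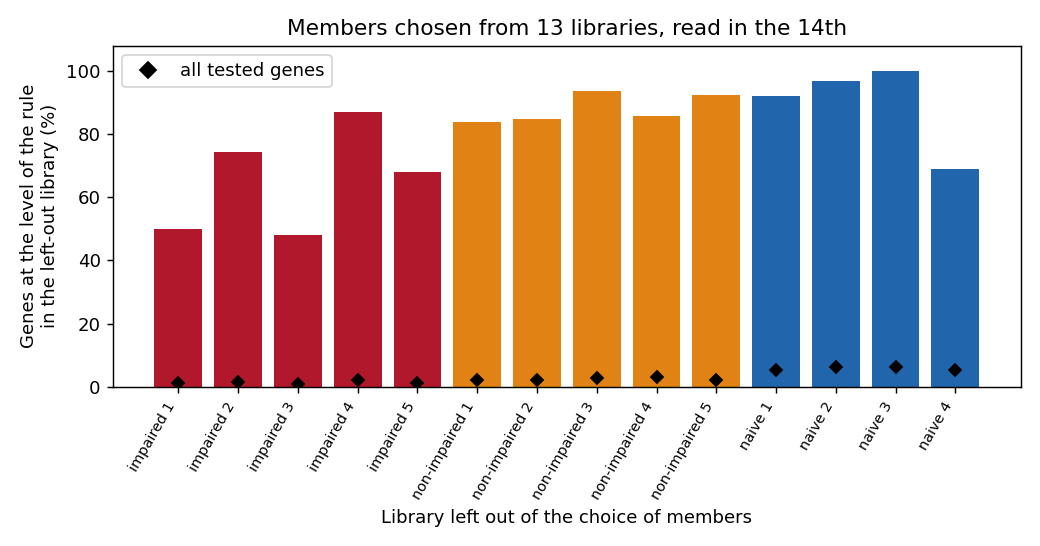
Bars give the percentage of genes, chosen by the rule from 13 libraries, that met the level of the rule in the library left out (for impaired libraries at least 2 CPM and 4 times both other medians; for the others at most 0.25 times the impaired median). Diamonds give the same for all tested genes, whose medians were not selected by the rule. The 3 lowest bars are those of impaired 3, impaired 1 and impaired 5, at 48.2%, 50.0% and 67.9%. Outside the impaired group naive 4 has the lowest bar, at 69.0%.

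The rule compared neither non-impaired with naive corneas nor set an order between them, so that contrast was tested in the fit over all genes, although both medians enter the rule. At an adjusted p below 0.05 in the edgeR fit, 21 of the 98 members (21.4%) were higher in non-impaired corneas, beside 12.8% of all tested genes. In a fit of the non-impaired and naive libraries alone, only 12 of these 21 passed the filter, and all 12 were called. The rest of the 21 were tested only because impaired libraries also counted in the filter. How many of all tested genes passed in that way was not computed, so the shares of tested genes given here may not be an equal background. Lower in non-impaired corneas was 1 member (1.02%), beside 9.99% of all tested genes. The rule holds the naive median to at most 0.25 times the impaired one, and 56 members had a naive median below 1 CPM. Such genes have little room to be called lower, so the small share follows in part from the rule. The other 76 did not pass, which does not show that the groups were alike: at an unadjusted p below 0.05, 31 members were higher (19.4% of tested genes) and 7 lower (17.4% of tested genes). The log2 fold change from naive to non-impaired was above 0 in 64 members (49.6% of tested genes), with a median of 0.62 over the 98 and of 0.00 over all tested genes; setting the 6 members without naive counts to their bound of 3 counts left it at 0.62. Every non-impaired library lay above every naive library in 19 members (11.6% of tested genes) and below in 1 (14.5% of tested genes). The low naive level limits the second of these counts as well.

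The 21 members called higher in non-impaired corneas ranged from scarce to abundant, within the limits that the rule sets on both medians. In the 17 of them with naive counts the log2 fold change from naive to non-impaired was 2.42 to 5.39. The other 4 had no naive count. Taking 3 counts in all naive libraries together as the floor, their non-impaired means were at least 4.76-fold to at least 33.9-fold higher, a bound that covers counting error only. The 21 members had non-impaired medians of 0.181 to 153 CPM and naive medians of 0 to 5.22 CPM. The impaired median was a median of 9.42 times the non-impaired median among them, from 4.47 to 97.8 times. Among the 13 members above 100 CPM, 5 were in this class, beside 6 of the 45 at 10 to 100 CPM and 10 of the 40 at 2 to 10 CPM. The member of rank 5 belonged to it, with 13.7, 75.7, 7.15, 15.9 and 21.5 CPM in non-impaired 1 to 5 and 2.23, 0.849, 2.41 and 3.17 CPM in naive 1 to 4 (log2 fold change 3.69, SE 0.79, edgeR adjusted p = 0.00493), below its impaired range of 90.1 to 507 CPM. Of the 21 calls, 12 were kept without naive 1, 13 without naive 3, 15 without naive 4 and 21 without impaired 1.

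**Figure D3:**
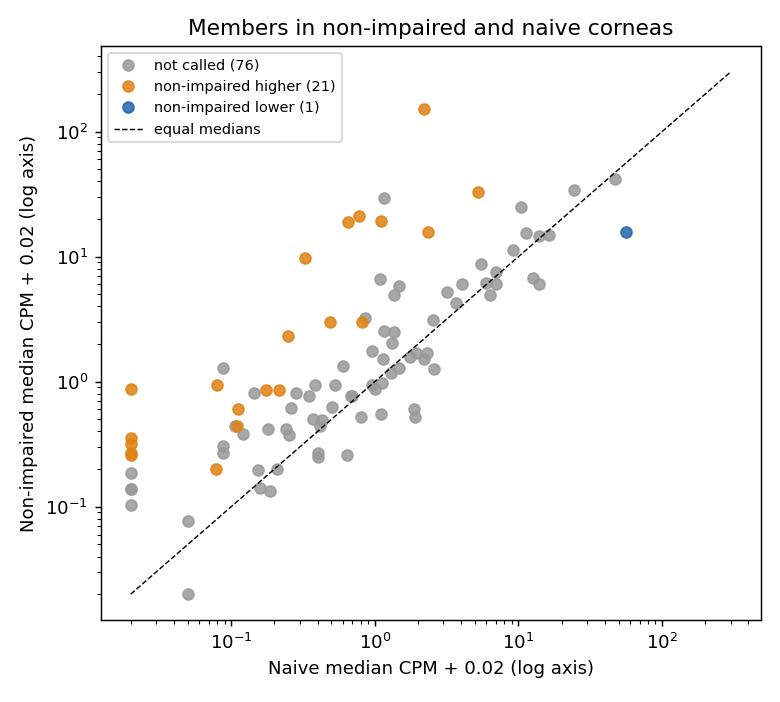
Non-impaired median CPM against naive median CPM for the 98 members, with 0.02 CPM added to both and log axes; the dashed line marks equal medians. Members called higher in non-impaired corneas (21) lie above the line, most of them at naive medians below 1 CPM, and the 1 called lower lies at the right, with a naive median of 56.0 CPM.

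The 1 member called lower in non-impaired corneas was that of rank 3. It had 40.4, 534, 191, 343 and 551 CPM in impaired 1 to 5, 14.2, 8.40, 22.0, 20.0 and 15.9 CPM in non-impaired 1 to 5, and 88.6, 23.3, 23.4 and 431 CPM in naive 1 to 4. Non-impaired libraries were the lowest of all, and the naive group spanned the range from near the non-impaired to the impaired libraries, with naive 4 above 3 of the 5 impaired ones. The log2 fold change from naive to non-impaired was -3.10 (SE 0.88, edgeR adjusted p = 0.0223), and it was -1.43 without naive 4. The call was lost without naive 4, without both impaired 1 and naive 4, without non-impaired 2 and with limma voom. Over the alternatives the edgeR, DESeq2 or limma adjusted p ran from 0.00159 to 0.169. The test did not call this member between impaired and naive corneas (edgeR adjusted p = 0.250).

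This pattern in naive 4 recurred. With 0.5 CPM added to both values, naive 4 was at least 4 times the median of naive 1 to 3 in 24 of the 98 members (24.5%), and in 0.717% of the 10048 tested genes. Measured in the same way against their own group mates, naive 1, 2 and 3 reached that ratio in 2, 1 and 0 members. Their shares of tested genes were 0.259%, 0.159% and 0.0498%. Impaired 4 reached it in 6 members and, like naive 4, in 0.717% of tested genes. The remaining libraries reached it in 0 to 4 members. Naive 4 stood a median of 6.41 times above its group mates in these 24 genes and up to 29.3 times. They included 6 of the 13 members above 100 CPM, 17 of the 45 at 10 to 100 CPM and 1 of the 40 at 2 to 10 CPM. This class was formed after its values were seen and is described without a test.

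Over these 24 members the median CPM was 2.69, 0.523 and 0.991 in naive 1 to 3 and 11.9 in naive 4. It was 2.63 to 3.95 in the non-impaired libraries. In impaired 1 to 5 it was 17.1, 68.6, 27.7, 60.9 and 73.4. Naive 4 thus lay between the non-impaired libraries and impaired 1 on this measure. In 14 of the 24 members naive 4 was above impaired 1, in 15 it was at or above the lowest impaired library and in 3 above the impaired median. Among the other 74 members these numbers were 3, 5 and 0. The 24 were picked by a high naive 4, so this contrast follows in part from the split.

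Most of these 24 members were low in impaired 1. With 0.5 CPM added, impaired 1 was under 0.5 times the median of impaired 2 to 5 in 19 of them, and the ratio ran from 0.0859 to 1.25. Its median was 0.366 in them, 0.733 times in the other 74 members and 1.10 times over all tested genes. Impaired 1 was the lowest impaired library in 18 of the 24 and the highest in 0, whereas in the other 74 it was the lowest in 23 and the highest in 11. Across the 98 members, the log2 ratio of naive 4 to its group mates and that of impaired 1 to its own had a Pearson correlation of -0.534 and a Spearman correlation of -0.511. Over all 10048 tested genes the values were -0.310 and -0.350. These are descriptions across genes that share the same libraries. Impaired 1 had the fewest counts of all libraries, 12002876, beside 12028496 in non-impaired 3 and 12026170 in non-impaired 4. The part of depth in this was not tested.

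**Figure D4:**
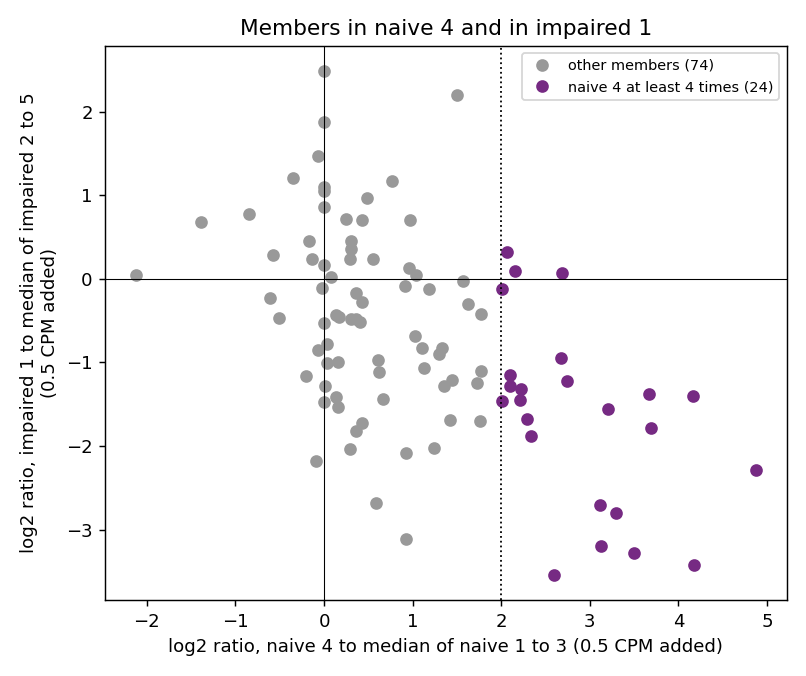
Each point is 1 of the 98 members: the log2 ratio of naive 4 to the median of naive 1 to 3 (horizontal) against the log2 ratio of impaired 1 to the median of impaired 2 to 5 (vertical), with 0.5 CPM added to all values. The dotted line marks a ratio of 4; of the 24 members beyond it, most lie below 0 on the vertical axis, where impaired 1 is lower than its group mates.

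The sums of both classes follow as a description, since the split was made on naive 4 and so limits its level in the 74 members and raises it in the 24. The other 74 members summed to 162, 120, 132 and 214 CPM in naive 1 to 4 and to 371 to 606 CPM in the non-impaired libraries. Their sums in impaired corneas were 1867 to 9642 CPM. The log2 fold change from naive to non-impaired was above 0 in 58 of the 74, with a median of 0.92. The 24 members high in naive 4 summed to 247, 74.8, 107 and 1126 CPM in naive 1 to 4, to 121 to 210 CPM in non-impaired libraries and to 837, 3258, 1288, 2198 and 2747 CPM in impaired 1 to 5. There naive and non-impaired libraries overlapped, and naive 4 exceeded impaired 1. In the edgeR fit that fold change was above 0 in 6 of the 24, with a median of -0.92. Against the median of naive 1 to 3 alone, the non-impaired median was lower in 5 of the 24 members and in 11 of the 74. The split used that naive median as the denominator of its ratio, so these numbers are shaped by the split as well.

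**Figure D5:**
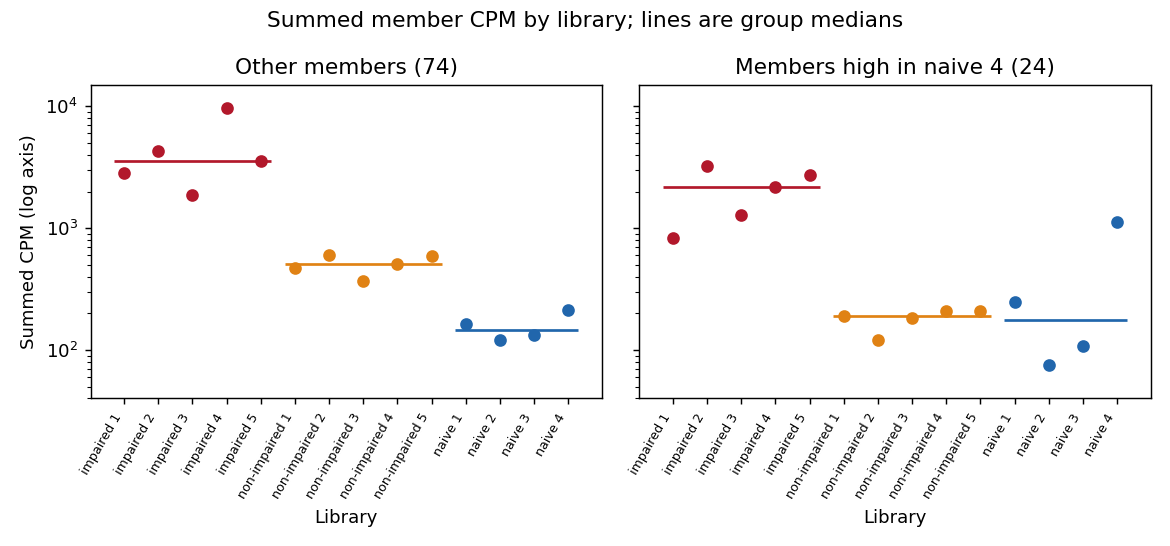
Summed CPM (log axis) by library for the 74 other members (left) and the 24 members high in naive 4 (right); points are libraries and horizontal lines group medians. The split was made on naive 4, which limits its level on the left; on the right naive 4, at 1126 CPM, lies above impaired 1, at 837 CPM.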

How the data were processed

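RNA-seq libraries from 14 corneas were used, 5 impaired, 5 non-impaired and 4 naive by the clinical status in the labels. The deposited values are raw counts per Ensembl rabbit gene ID, 1 file per library, made by the authors. OryCun2.0 is the build in the submitters' processing notes, which also list DESeq, Cufflinks 2.0.2, TopHat2 2.1.0 and bcl2fastq 2.17 without their roles. The read counter, its strand setting and the annotation are not given in the sources used here, so counts of overlapping, antisense or near-identical genes are uncertain. The IDs matched 0 of 38822 RefSeq genes of mOryCun1.1; lists that need gene names were not used.

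The members and lists were chosen with earlier results of these data known. CPM are counts multiplied by 1000000 and divided by the library total. Tests used edgeR 4.0.16 in R 4.3.3 (default filter, TMM factors, 1 robust quasi-likelihood fit of all groups, Benjamini-Hochberg adjustment over 10048 genes, threshold 0.05). The SE of a log2 fold change is its absolute value divided by the square root of the F statistic of that test. It thus follows from the test and is not a separate estimate. All 98 members passed the filter, which the impaired group alone can satisfy. IDs are printed for the member with the highest impaired median and the next whose impaired libraries all exceed all 9 others; further members are given by rank. Alternatives were other size factors, filters, DESeq2 1.42.0, limma 3.58.1 with voom, pairwise fits, other limits of the rule and leaving out each library. Leaving out impaired 1 and naive 4 together was added after the data were seen, as were fits that kept the 98 members while leaving out either. The fits were tested on simulated data.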

Additional observations from a re-analysis of the deposited data

Results flagged for a closer look

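In a group of 4 or 5 libraries, a value was singled out when its gap to the nearest other library was above Dixon's 95% limit as a share of the group's range, which chance does in about 1 of 20 groups. Naive 2 had 13.5 CPM of ENSOCUG00000029244, against 1.77 to 2.46 CPM in the other naive libraries. Naive 4 had 431 CPM of the member of rank 3. Impaired 4 had 2215 CPM of the member of rank 8 and 1932 CPM of that of rank 12. Non-impaired 2 had 75.7 CPM of the member of rank 5, 136 CPM of that of rank 12 and 36.2 CPM of that of rank 47. Non-impaired 1 had 1.19 CPM of the member of rank 14, still far below its impaired libraries. Over all 98 members such a library was found 25 times in naive corneas, 21 of them naive 4, 17 times in non-impaired corneas and 11 times in impaired corneas, 7 of them impaired 4. Over all tested genes, read on the same CPM scale without logs, the share was 6.80% in naive, 7.29% in non-impaired and 8.11% in impaired corneas. No explanation was tested.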

How the results depend on the processing

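The number of members was 98 with totals scaled by TMM or by DESeq2 size factors (96 shared with the rule as given), 119 with group means (85 shared), 143 at 3-fold and 53 at 8-fold. It was 92 to 112 without any 1 library and 117 without both impaired 1 and naive 4. Members called higher in non-impaired corneas against naive numbered 12 where 5 CPM was required in 4 libraries, which leaves fewer members to test, and 12 to 27 without any 1 library, where the members were chosen again as well as the fit repeated; of the 21 calls of the 98 members, 12 to 21 were kept in those fits. DESeq2 called 30, limma voom 23 and the pairwise fit 17. With that filter 59 members were called higher in impaired than in naive and 62 than in non-impaired corneas. Members called lower in that comparison numbered 5 with DESeq2, 0 with limma voom, 2 with pairwise fits, 0 without both impaired 1 and naive 4, and 0 to 4 without any 1 library (for the same 98 members, 3 without impaired 1 and 0 without naive 4); the cause was not tested. The percentages of all tested genes called, given above, are from the main edgeR fit. They were not computed for these alternatives. The counts of called members under other tools, filters or sets of libraries thus have no background beside them. Whether they exceed what each alternative calls over all genes was not tested. The mean member sum of non-impaired corneas was 519 CPM without the most abundant member. For ENSOCUG00000029244 and ENSOCUG00000013488 the call of non-impaired above naive held in all 22 alternatives (edgeR, DESeq2 or limma adjusted p at most 0.00186 and 0.0101). No paired analysis was possible because the replicate numbers were given in accession order. Depth limits the scarce members most: 3 counts over the naive group are 0.0472 CPM, and 46 members were below 1 CPM in both other groups.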

Other observations

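Beyond the members, 48 other tested genes had naive 4 at least 4 times the median of naive 1 to 3, so that the 24 members were 33.3% of all 72 such genes. In these 48 genes impaired 1 was not low: it was a median of 1.30 times the median of impaired 2 to 5, against 0.366 times in the 24 members. The impaired median exceeded the non-impaired median in 32 of the 48, with a median ratio of 1.40. These values are descriptions of a class formed after the data were seen.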
